A study of Sus scrofa with 6 samples.

Results

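COX1, COX2, COX3, CYTB, ATP6 and ATP8 are the protein genes of the pig mitochondrial genome that do not belong to complex I of the respiratory chain. They were chosen by symbol, through their Ensembl gene IDs, and make up 6 of the 25322 genes in the table and 6 of the 10005 that passed the filter on low values. RNA was sequenced from longissimus dorsi, a long muscle along the spine, of 6 healthy female Tibetan pigs, 1 library per animal. The low altitude group was 3 pigs of the Chengdu plain (mean altitude 500 m), held experimentally with daily feed and descended from Tibetan pigs bred in the lowland for generations. The high altitude group was 3 pigs that ranged freely in the Tibetan highland (mean altitude 4000 m). Altitude, feeding, housing and the history of the line differed together between the groups and cannot be told apart. The labels give no ages.

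The mitochondrial genome is a small circle of DNA, present in many copies per cell, that encodes core subunits of the respiratory chain, while the remaining subunits are encoded in the nucleus. COX1, COX2 and COX3 form the catalytic core of cytochrome c oxidase (complex IV), which passes electrons to oxygen, and CYTB is the cytochrome b of complex III, which feeds it. ATP6 and ATP8 are membrane subunits of the ATP synthase, which uses the proton gradient built by these complexes. In mammals the mitochondrial genes are transcribed as long joint precursors that are then cut into shorter RNAs. ATP8 and ATP6 overlap and stay together on 1 RNA, as do ND4L and ND4 of complex I. In the RefSeq gene table for Sscrofa11.1, COX1, COX2, ATP8, ATP6 and COX3 follow each other in this order among the protein genes, ATP6 overlaps both its neighbours, and CYTB is the last protein gene of the map.

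The values are FPKM, sequenced fragments corrected for the length of the gene and for the mapped fragments of each library, so levels can be compared between genes per unit length. FPKM of very short genes such as ATP8 depends on how fragment length was corrected for, and the way reads in the overlap of ATP8 and ATP6 were divided is not stated, so the level of ATP8 is uncertain. Copies of mitochondrial DNA in the nuclear genome can also share reads with these genes. The FPKM totals were 506611 to 566907 at low and 526368 to 571855 at high altitude. FPKM keeps no read totals, but the spacing of the lowest values gave relative depths of 0.878 to 0.997 at low and 0.864 to 1.21 at high altitude. In bulk muscle, fewer cells of a type and less RNA per cell cannot be told apart.

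ATP8 had the highest level of all 25322 genes in each of the 6 libraries, and the other members were also among the 20 highest in each. ATP8 stood at 44532, 44005 and 41689 FPKM in the low altitude libraries and at 45342, 47004 and 44962 in the high altitude libraries. ATP6 came next with 25954, 25409 and 23406 FPKM at low altitude and 29416, 32633 and 29615 at high altitude. CYTB was the lowest member, with 6341, 6031 and 5581 FPKM at low altitude and 6684, 8383 and 7382 at high altitude. ATP8 above ATP6, ATP6 above the oxidase genes and these above CYTB held in every library. Among the oxidase genes the order was not fixed. COX3 was at 94.6 to 104% of the COX2 level at low altitude and at 95.7 to 109% at high altitude, so the levels of COX3 and COX2 did not differ beyond their spread. COX1 was at 83.4 to 84.3% of COX2 at low altitude, and at 81.1 and 87.2% in high altitude libraries 2 and 3 but 106% in high altitude library 1.

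**Figure D1:**
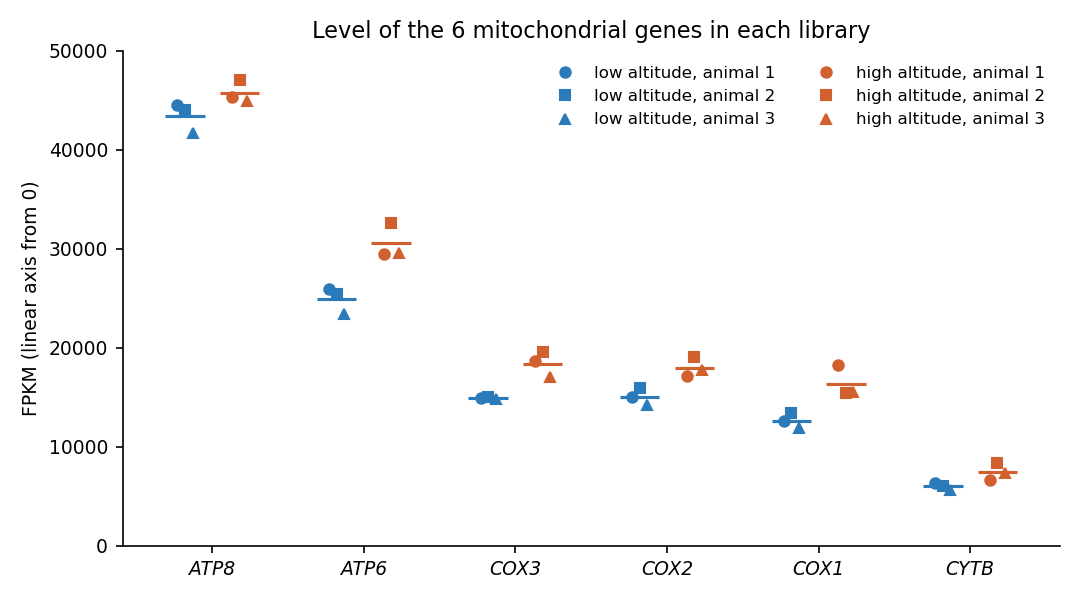
FPKM (linear axis from 0) of the 6 mitochondrial genes in each library, low altitude in blue and high altitude in orange, with the group mean as a bar and 1 symbol per animal. For every gene the 3 low altitude points lie below the 3 high altitude points, and the gap is narrowest for ATP8 relative to its level.

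The design asks whether muscle of pigs that live in the lowland differs from muscle of pigs in the highland. All 6 members had lower levels at low altitude with no overlap between the groups, by 5.16% for ATP8 and by 16.2 to 22.9% for the other 5, but none passed the test over all genes. Over all tested genes, 4.80% had groups that did not overlap with low altitude lower and 11.3% with low altitude higher. The members share the same libraries, the same scaling and the same precursor RNAs, so their agreement is not 6 independent observations.

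COX1, the subunit that holds the site where oxygen is reduced, had the largest difference of the members in the 6 libraries together. It was at 12559, 13424 and 11870 FPKM at low altitude and at 18207, 15431 and 15478 at high altitude. High altitude library 1 stood above the other two of its group, which lay close together, and all 3 were above the low altitude libraries. The means were 12618 ± 779 FPKM at low and 16372 ± 1589 at high altitude (SD, n = 3 each), 22.9% lower at low altitude. Fitted on log2(FPKM + 1), the log2 fold change of low over high altitude was −0.37 (SE 0.12, 95% interval −0.66 to −0.091). After Benjamini-Hochberg adjustment its p was 0.401 in limma. Without high altitude library 1 the log2 fold change of COX1 was −0.29, and CYTB at −0.40 and ATP6 at −0.32 then had larger differences than COX1. With array weights CYTB, at −0.38, was also ahead of COX1, at −0.33.

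COX2, which takes up the electrons from cytochrome c, was at 15054, 15918 and 14166 FPKM at low altitude and at 17110, 19025 and 17758 at high altitude. Its groups did not overlap, its mean was 16.2% lower at low altitude and its log2 fold change was −0.26 (SE 0.11, limma, Benjamini-Hochberg adjusted p = 0.523). COX3, the third core subunit, was at 14923, 15059 and 14789 FPKM at low altitude and at 18663, 19528 and 16992 at high altitude. The low altitude values of COX3 varied by 0.905% (SD over mean), the least of any member in either group, against 7.01% at high altitude. Its mean was 18.9% lower at low altitude, with a log2 fold change of −0.30 (SE 0.11, limma, Benjamini-Hochberg adjusted p = 0.450).

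CYTB had a mean of 5984 ± 382 FPKM at low and 7483 ± 854 at high altitude (SD, n = 3 each). In high altitude library 1, where COX1 was highest, CYTB was the lowest of its group and only just above the highest low altitude value. Its log2 fold change was −0.32 (SE 0.13, 95% interval −0.63 to −0.010, limma, Benjamini-Hochberg adjusted p = 0.506).

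The ATP synthase genes differed from each other in how far apart the groups lay. ATP6 averaged 24923 ± 1342 FPKM at low and 30555 ± 1803 at high altitude (SD, n = 3 each), 18.4% lower at low altitude. Its log2 fold change was −0.29 (SE 0.10, limma, Benjamini-Hochberg adjusted p = 0.453). ATP8 averaged 43409 ± 1513 FPKM at low and 45769 ± 1086 at high altitude, 5.16% lower at low altitude. Its log2 fold change of −0.077 (SE 0.093) had a 95% interval of −0.30 to 0.14 that holds 0 (limma, Benjamini-Hochberg adjusted p = 0.841).

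With Benjamini-Hochberg adjustment over all 10005 genes in limma, 0 of the 6 members passed at 0.05, where 23 genes or 0.230% of all tested genes did, 16 (0.160%) higher and 7 (0.0700%) lower at low altitude. At an unadjusted p under 0.05 in limma, 5 of the 6 members were lower, all but ATP8, where 3.08% of all tested genes were lower and 9.42% differed in either direction. The median log2 fold change was −0.30 over the 6 members and 0.041 over all tested genes. The members varied little between animals of a group: the SD within groups on the log2 scale was 0.043 to 0.13 with a median of 0.081. The 7 mitochondrial subunits of complex I were close to them, at 0.071 to 0.18 with a median of 0.11, against a median of 0.22 over all tested genes and of 0.31 over the 44 genes outside the mitochondrial genome with a mean FPKM of at least 1000.

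**Figure D2:**
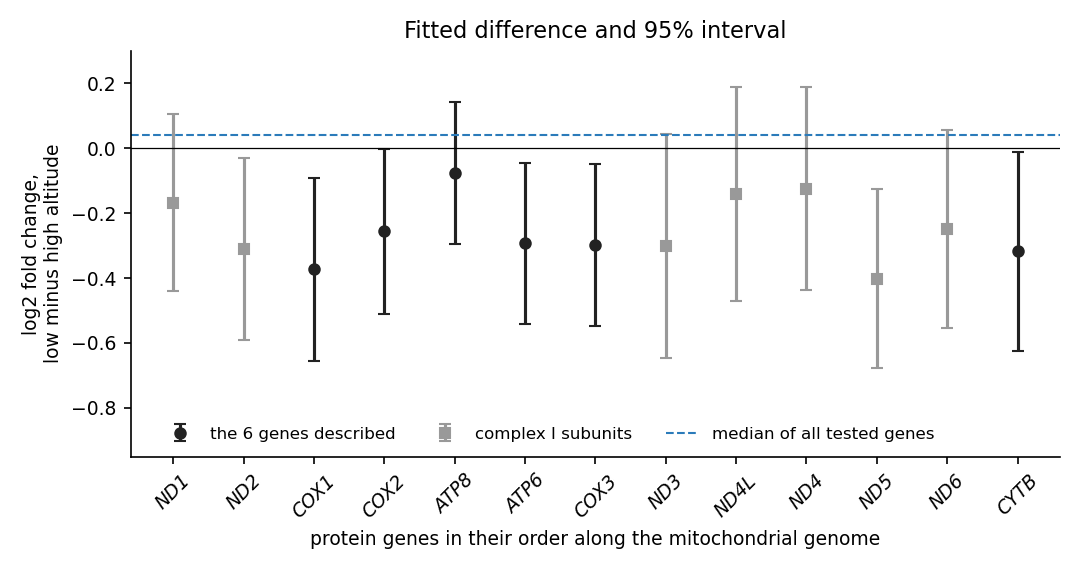
Fitted log2 fold change (low minus high altitude) with its 95% interval for the 13 protein genes of the mitochondrial genome in their order along it, the 6 members in black circles and complex I subunits in grey squares. All 13 estimates lie below 0 and below the median of all tested genes (dashed line, 0.041), and ATP8 lies nearest to 0 of all.

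Together the 6 members had 119364, 119845 and 111500 FPKM at low altitude and 135422, 142004 and 132186 at high altitude. The sum was 14.4% lower at low altitude, and the groups did not overlap (exact permutation test, two-sided, p = 0.1, the smallest p that 3 against 3 libraries allow). As no single member's groups overlapped, those of the sum could not, so this p was fixed and adds nothing to the members' own values. As a share of the FPKM total, the members took 23.6, 23.6 and 19.7% at low altitude and 23.8, 24.8 and 25.1% at high altitude (exact permutation p = 0.1). Low altitude libraries 1 and 2 lay close below high altitude library 1, and low altitude library 3 lay far below the others. A set of 107 genes, ACTA1 among them, had an exact 0 in some library and 5 FPKM or more in another, and these genes held 78641 FPKM of low altitude library 3 against 5444 to 40429 in the other libraries. Without them in the total the members took 23.8, 23.8 and 22.8% at low altitude and 24.4, 26.7 and 25.5% at high altitude. The groups did not overlap (exact permutation p = 0.1), and low altitude library 3 lay nearer to the others but was still the lowest. The difference in the share of the deposited total was −2.32 percentage points with all libraries and −1.03 points without low altitude library 3.

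A share within the mitochondrial genome is not altered by multiplying a library by a factor. The members held 76.7, 79.2 and 77.9% of the FPKM of the 13 mitochondrial genes at low altitude and 78.9, 77.8 and 77.3% at high altitude. The groups overlapped and the means were 78.0% in each (exact permutation test, two-sided, p = 1). With ATP8 left out of both sums, the share of the other 5 differed by −1.20 percentage points (exact permutation p = 0.4).

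Among the members ATP8 stood apart in its share of the 13 genes, though the uncertainty in its level given above also applies to its share and its ratio to ATP6. Shares of single complex I genes were not formed. ND4, ND4L and ND1, with log2 fold changes of −0.12, −0.14 and −0.17, also lay nearer to 0 than the members other than ATP8. The part of fragment length and of the division of overlap reads in the difference between groups was not tested. ATP8 made up 28.6, 29.1 and 29.1% of the FPKM of the 13 genes at low altitude and 26.4, 25.8 and 26.3% at high altitude, a difference of 2.81 percentage points with no overlap. ATP6, its partner on the same RNA, made up 16.7, 16.8 and 16.4% at low altitude and 17.1, 17.9 and 17.3% at high altitude. ATP6 was accordingly at 58.3, 57.7 and 56.1% of the ATP8 level at low altitude and at 64.9, 69.4 and 65.9% at high altitude. The spread of this ratio within a group was 1.11 points at low and 2.39 points at high altitude (SD, n = 3 each), and the nearest libraries of the groups were at 58.3 and 64.9%. Both genes reached p = 0.1, the smallest the exact permutation test allows, and 0.3 after Benjamini-Hochberg adjustment over the 6 members. The difference in the ATP6 share was −0.83 points, but only −0.23 points with ATP8 left out of the total (exact permutation p = 0.6), so it rests on ATP8. The shares of COX1, COX2, COX3 and CYTB overlapped between the groups (exact permutation p = 0.2, 0.6, 0.3 and 0.4, two-sided). COX1 made up 8.07 to 8.88% at low and 8.45 to 10.6% at high altitude, with the 10.6% in high altitude library 1.

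**Figure D3:**
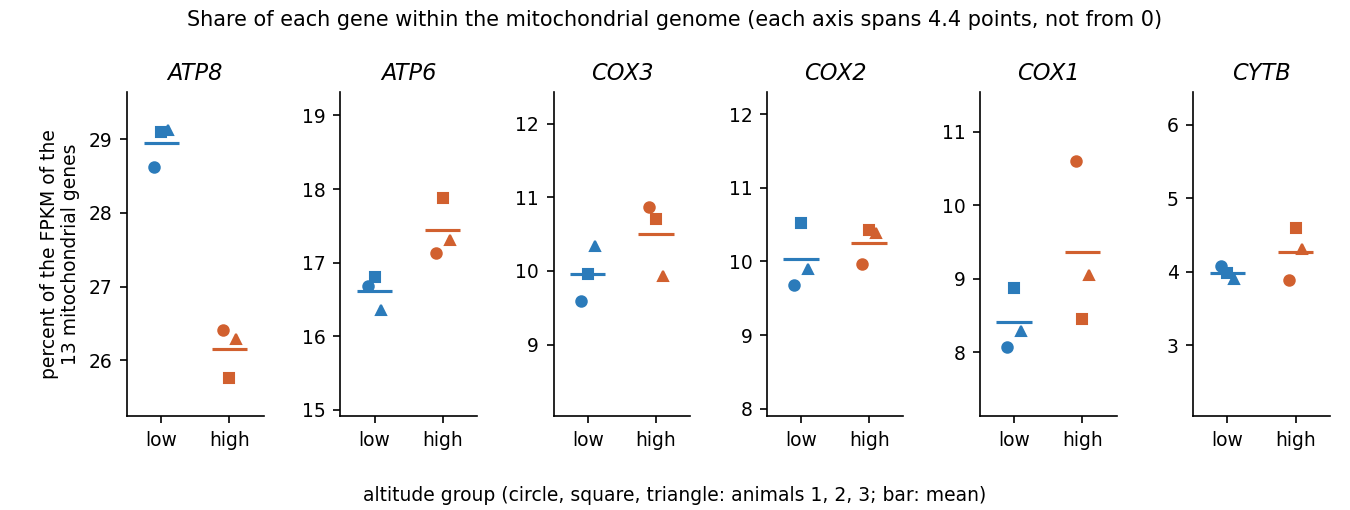
Share of each member in the FPKM of the 13 mitochondrial genes, in percent, by altitude group, with 1 symbol per animal and the mean as a bar (each axis spans the same width and does not start at 0). ATP8 lies at 28.6 to 29.1% at low and 25.8 to 26.4% at high altitude, ATP6 is lower at low altitude without overlap, and the other 4 overlap.

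The 7 complex I subunits of the mitochondrial genome had a median log2 fold change of −0.25, and 0 of the 7 passed in limma with Benjamini-Hochberg adjustment. ND5, a proton-pumping subunit, was lowest relative to high altitude at −0.40, and ND4 was nearest to 0 at −0.12. ND1, ND2, ND3 and ND6 lay at −0.17, −0.31, −0.30 and −0.25, and ND4L at −0.14. Groups did not overlap, with low altitude lower, in 5 of the 7, against 4.80% of all tested genes. These genes share the same libraries and scaling, so they are not independent observations. ND4 and ND4L, which overlap each other on the genome, were the ones whose groups overlapped.

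Each of these complexes also needs subunits from the nucleus, of which 6 of 9 listed could be matched and tested for complex III, 6 of 15 listed for complex IV and 6 of 18 for the ATP synthase. All 18 had estimates below 0, and 0 passed in limma with Benjamini-Hochberg adjustment. They share the same libraries and scaling, so they are not 18 independent observations. High altitude library 1 had the highest mean log2(FPKM + 1) of the tested nuclear subunits of all libraries. It was 7.65 for complex III, 8.25 for complex IV and 8.48 for the ATP synthase. The median log2 fold change was −0.26 for complex III, −0.35 for complex IV and −0.45 for the ATP synthase, where 42.3% of all tested genes had an estimate below 0. None of the 18 had groups that did not overlap. Over all tested genes, the groups were apart in 4.80% with low altitude lower and in 11.3% with low altitude higher. UQCRC1, a core subunit of complex III, was at 128, 183 and 133 FPKM at low altitude and 227, 208 and 166 at high altitude. COX5B of complex IV was at 319, 424 and 310 FPKM at low and 591, 428 and 386 at high altitude. Of these subunits ATP5ME of the ATP synthase had the smallest p, with 153, 196 and 146 FPKM at low and 310, 221 and 193 at high altitude. Its log2 fold change was −0.53 (limma, Benjamini-Hochberg adjusted p = 0.506). For each of these genes high altitude library 1 was the highest of its group and low altitude library 2 the highest of its own. The summed level of 4 slow fibre markers was also highest in these libraries of each group, at 4707 FPKM in low altitude library 2 and 10493 in high altitude library 1, and its part in the nuclear subunits was not tested. UQCRC2 (−0.39), NDUFA4 (−0.40) and ATP5MC1 (−0.61) were the second of each list by p, with limma adjusted p of 0.714, 0.667 and 0.608 after Benjamini-Hochberg adjustment.

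The balance of mitochondrial to nuclear subunits did not separate the groups. As a difference of mean log2(FPKM + 1), the mitochondrial subunits exceeded the nuclear ones by 5.49 ± 0.281 at low and 5.56 ± 0.452 at high altitude in complex III (SD, n = 3 each). The excess was 6.12 ± 0.293 at low and 6.10 ± 0.193 at high altitude in complex IV, and 7.28 ± 0.316 at low and 7.04 ± 0.320 at high altitude in the ATP synthase. The groups overlapped in each (exact permutation p = 0.8, 1 and 0.5, two-sided, each 1 after Benjamini-Hochberg adjustment over the 3 complexes). The excess was lowest in high altitude library 1 for complex III (5.05) and the ATP synthase (6.67), and lowest in low altitude library 2 for complex IV (5.78), with high altitude library 1 next (5.89).

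**Figure D4:**
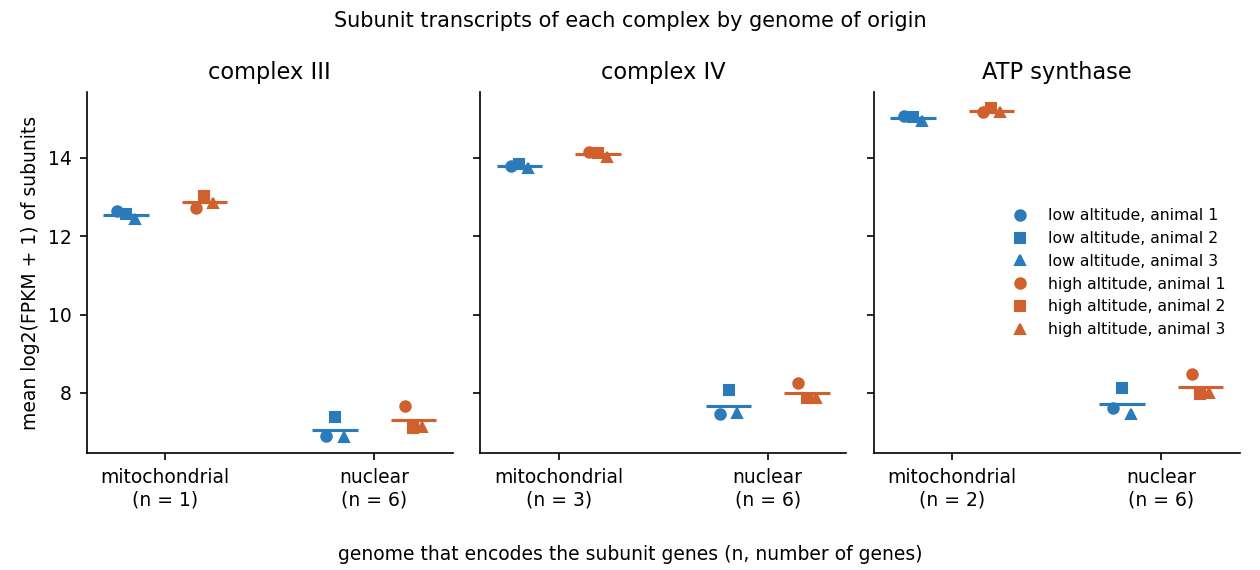
Mean log2(FPKM + 1) of the mitochondrial and of the tested nuclear subunit genes of complex III, complex IV and the ATP synthase, by altitude group, with 1 symbol per animal and the mean as a bar. The mitochondrial means do not overlap between groups, whereas the nuclear means do, with low altitude animal 2 and high altitude animal 1 highest of their groups.

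Genes that copy, cut, translate or assemble the products of the mitochondrial genome, as far as tested, had medians on both sides of that of all tested genes (0.041). The median log2 fold change was 0.078 over 9 of 28 listed assembly factors of complexes III and IV, and 0.11 over 2 of 5 of the ATP synthase. It was −0.019 over 8 of 16 listed genes of mitochondrial transcription and replication, and −0.0062 over 27 of 31 of mitochondrial RNA processing, stability and translation. TFAM and POLRMT of the transcription list had no matching ID, so they were not tested. Of the tested genes of these lists, 0 passed in limma with Benjamini-Hochberg adjustment. COA4, a twin-CX9C factor of complex IV, was at 20.1, 17.8 and 16.2 FPKM at low altitude and 9.93, 12.5 and 7.30 at high altitude, with no overlap. Its log2 fold change was 0.83 (limma, Benjamini-Hochberg adjusted p = 0.282). COX18, which inserts part of COX2 into the inner membrane, was at 0.920 ± 0.328 FPKM at low and 1.44 ± 0.0728 at high altitude (−0.36, SD, n = 3 each; limma, Benjamini-Hochberg adjusted p = 0.548). MGME1, a nuclease of mitochondrial DNA maintenance, had the smallest p of the replication genes (−0.43, limma, Benjamini-Hochberg adjusted p = 0.467), and TFB1M, which modifies ribosomal RNA, lay at 0.23. OXA1L, which inserts mitochondrially made proteins into the membrane, was at 49.8 ± 6.43 FPKM at low and 63.3 ± 7.38 at high altitude (−0.34, limma, Benjamini-Hochberg adjusted p = 0.577). The release factor MTRF1L lay at 0.28, and the ATP synthase factors TMEM70 and ATPAF2 at 0.37 and −0.15.

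Outside the mitochondrial genome, the 5 genes with a symbol whose profile over the 6 libraries lay nearest to the members' mean profile were ZNF667, SHARPIN, SLC35E1, GGA3 and CRKL. Nearness was the root mean square distance between centred log2(FPKM + 1) profiles, which was 0.025, 0.028, 0.032, 0.037 and 0.042 for these genes, against a median of 0.26 over the 6706 genes compared. The members themselves lay at 0.027 (ATP6) to 0.11 (COX1) from their own mean. Of these 5 genes, CRKL, an adaptor of growth factor signalling, was at 17.4 ± 0.598 FPKM at low and 21.2 ± 1.40 at high altitude (SD, n = 3 each). The other 4 had means of 1.31 to 3.14 FPKM, where the pseudocount flattens differences.

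The scaling of the libraries moved the size of the differences. COX1 lay between −0.30 and −0.43 on the log2 scale under the 5 other scalings. ATP8 lay at −0.13 with median-of-ratios scaling and at −0.00045 with a common FPKM total. Quantile normalization gives genes of equal rank equal values, and there both ATP8 and ATP6 lay at 0. It also brought COX2 to −0.090, COX3 to −0.19 and CYTB to −0.16, against −0.26, −0.30 and −0.32 with the values as deposited. A common FPKM total shifted the median of all tested genes to 0.10, and relative to it COX1 lay at −0.40 and ATP8 at −0.10. The split of all called genes was 26 higher and 6 lower with a common total, and 39 higher and 10 lower with a common total outside the mitochondrial genome.

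**Figure D5:**
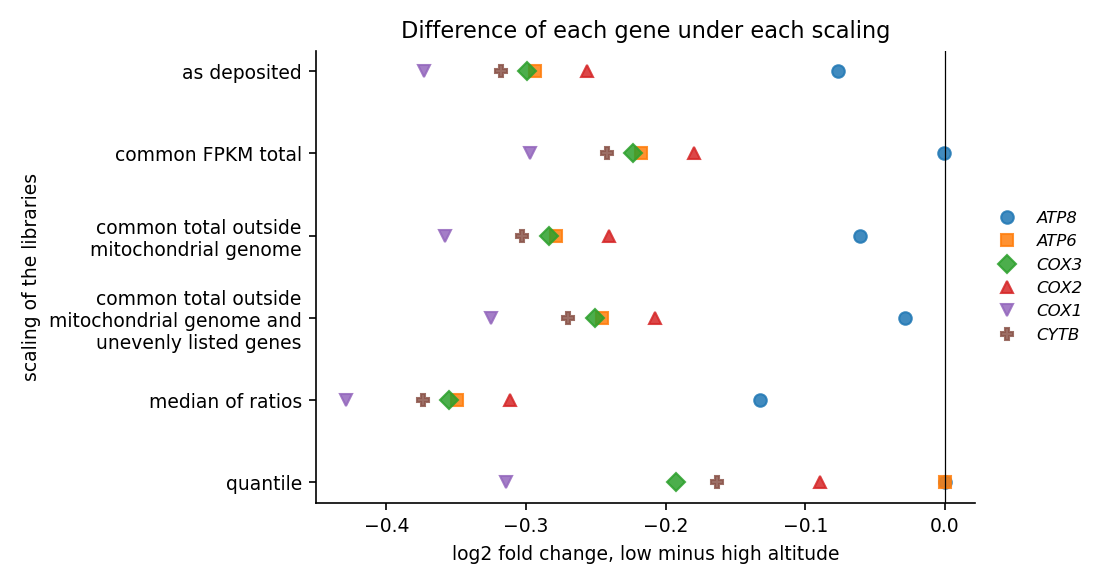
Fitted log2 fold change (low minus high altitude) of each member with the values as deposited and under 5 other scalings of the libraries. COX1 lies farthest below 0 in each row, from −0.30 to −0.43, and ATP8 nearest to 0, with ATP6 beside it under quantile normalization.

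The muscle label was checked against its markers. Of 13 markers of skeletal muscle 5 could be matched, and all but ACTA1 were present in every library, such as MYL11 of fast fibres at 14390 to 16308 FPKM at low and 14642 to 17808 at high altitude. The muscle actin ACTA1 had 35618 FPKM in low altitude library 3 and 34168 in high altitude library 2 but an exact 0 in the other 4 libraries, and a 0 here may therefore be a failed estimate. The summed levels of the matched markers of slow fibres (4 of 9) were 3126, 4707 and 3106 FPKM at low altitude and 10493, 2751 and 6874 at high altitude. High altitude library 1, highest in slow fibre markers, was also highest in COX1, whereas high altitude library 2, lowest in them, was highest in the other 5 members. The part of fibre type in the members' levels was not tested. Fast fibre markers (6 of 12) summed to 42958 to 44041 FPKM at low and 39466 to 48485 at high altitude. Fibroblast markers (6 of 8) summed to 714 to 1108 at low and 260 to 992 at high altitude, with the lowest in high altitude library 1. Sums were 4.52 to 12.4 at low and 3.88 to 22.0 at high altitude for adipocytes (2 of 7), and 38.7 to 54.9 at low and 31.0 to 53.0 at high altitude for endothelium (4 of 8). Smooth muscle and pericyte markers (6 of 7) summed to 114 to 123 at low and 85.3 to 127 at high altitude. Macrophage markers (5 of 8, CSF1R listed at 0 in a library) summed to 31.7 to 76.8 at low and 38.9 to 54.9 at high altitude, and erythroid markers (3 of 7, SLC4A1 listed at 0 in some libraries) to 57.4 to 117 at low and 57.0 to 163 at high altitude. The groups overlapped in every marker sum. All 4 tested slow fibre markers nevertheless had estimates below 0, with a median log2 fold change of −0.73, though 0 passed in limma with Benjamini-Hochberg adjustment.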

How the data were processed

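Per the labels' protocols, muscle was frozen in liquid nitrogen, RNA was taken up in TRIzol, and strand-specific dUTP libraries were made with an Illumina TruSeq kit. The submitters' processing notes name Cufflinks 2.2.1 and TopHat2 2.0.11. The roles of these tools, the genome build and the annotation were not given in the sources used here. Positions are therefore left out, and RefSeq Sscrofa11.1 served only for gene order. The authors deposited FPKM values of 25322 gene IDs in 6 libraries, and 11804 IDs had a symbol in the gene table used. FPKM holds no counts, so absolute depth is unknown.

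Genes that reached an FPKM of 1 in 3 or more libraries were tested on log2(FPKM + 1), which understates changes of low genes, with limma 3.58.1 (trend, two-sided) in R 4.3.3, Benjamini-Hochberg adjustment and a threshold of 0.05. The fit was also run on simulated data, with planted changes larger than the members' differences. That run does not show whether differences of the members' size would be found. Values formed once per library were compared by exact permutation tests in SciPy 1.17.1. Of 208 list symbols, counted once per list, 92 had no ID and are left out.

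The 6 genes are named in full and the 7 complex I genes briefly. Of each other list that holds no markers the 2 genes with the smallest unadjusted p are named, along with the 5 genes of nearest profile. The members and lists were chosen with earlier results of these data known. Alternatives tried were no filter, a mean FPKM of at least 5, pseudocounts of 0.1 and 0.5, 5 other scalings, limma without trend, robust, with array weights or with replicate numbers as a block, sums without ATP8, ratios of summed FPKM, and leaving out each library. Those that concern the 107 genes listed at 0 in some libraries were chosen after the data were seen.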

Additional observations from a re-analysis of the deposited data

How the results depend on the processing

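The 6 members kept an estimate at or below 0 and stayed short of the threshold under all 20 alternatives, with adjusted p of 0.259 to 1 (limma, Benjamini-Hochberg). As no member's groups overlapped, only the alternative scalings of the libraries could have reversed a sign. The remaining alternatives left the estimates unchanged or could not carry them past 0, so they do not test the sign. Under quantile normalization ATP6 and ATP8 lay at 0. Without 1 library in turn COX1 lay between −0.42 and −0.29, COX2 −0.30 and −0.21, COX3 −0.36 and −0.25, CYTB −0.40 and −0.23, ATP6 −0.32 and −0.25, and ATP8 −0.095 and −0.048. The count of changed genes over the table was 6 with no filter, 49 with a common total outside the mitochondrial genome, 10 with quantile normalization, 9 with median-of-ratios scaling, 38 with array weights, and 4 to 21 without 1 library (11 and 4 without high altitude libraries 2 and 3, 6 and 4 without low altitude libraries 1 and 3).

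With the shared numbers as a replicate block it was 19, and no member passed. Libraries with the same number did not deviate together more than others did. Their correlations were −0.015, 0.095 and −0.14 for numbers 1 to 3, against −0.15 to 0.16 for other pairs. No sign that the numbers pair the animals was seen, but so few libraries cannot exclude it.

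Small differences changed sign. The members' share of the 13 genes differed by −0.65 to 0.60 points without 1 library. COX2's share differed by 0.24 points without ATP8. The excess of mitochondrial subunits differed by −0.32 to 0.11 in complex III and −0.090 to 0.18 in complex IV without 1 library. The ATP8 share was 2.61 to 2.97 points higher at low altitude without 1 library. Its groups did not overlap, so leaving out 1 library could not change that sign. Weighting by protein length was not run, since no protein sequences were used here. Absolute depth is unknown, and 3 animals per group allow no exact p under 0.1.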
